A study of Mus musculus with 5 samples.

Results

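Claudins are the membrane proteins that form the strands of tight junctions, the seals between neighbouring epithelial or endothelial cells. The 7 members described here are Cldn1, Cldn3, Cldn4, Cldn5, Cldn7, Cldn8 and Cldn10, taken by name from 33 numbered claudin names listed in the data, of which 25 had a count in any library, among 24299 genes with a count. In PyMT mouse mammary tumours Cldn1, Cldn3, Cldn4, Cldn7, Cldn8 and Cldn10 were higher in epithelial-like cells than in the mean of the other cell classes, and Cldn5 was an endothelial transcript. Cldn10 was also present in fibroblast-like cells, at 41.7 to 89.5% of its epithelial-like level. Within the epithelium Cldn3, Cldn4 and Cldn7 were highest in a luminal progenitor-like cluster and lowest in a basal-like cluster, and Cldn10 had another order. Between platforms Cldn3 was lower and Cldn4 higher in BD 1 than in the mean of the fresh 10x libraries, in every epithelial cluster compared.

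As background, claudins differ in whether they seal the space between cells or let ions through, and a tissue's mix of claudins sets how tight its barrier is. Cldn3, Cldn4 and Cldn7 are the common claudins of mammary luminal epithelium, and breast tumours low in them are called claudin-low. Cldn5 is the main claudin of endothelial tight junctions, best known from the barrier of brain vessels.

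PyMT mice carry the polyoma virus middle T antigen in the mammary epithelium; the sources used here do not give the promoter, strain or age of the animals. All groups share that transgene, a tumour digest and an enrichment for viable cells. The groups were fresh 10x 1 and fresh 10x 2 (10x Genomics 3' v2, a droplet system), stored 10x (the same system after a night of the digest at 4 °C, titled 24 h), and BD 1 and BD 2 (BD Rhapsody whole transcriptome assay, a microwell system). BD 1 is titled fresh; BD 2 is titled fresh while its files are named for 24 h, so it forms a separate group with no storage state assigned. Only fresh 10x was replicated, and nothing says whether those libraries came from separate animals, so p-values measure the spread between these samples, which may be technical.

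The libraries held up to 4186 cells each and 29166129 to 59957945 unique molecular identifiers (UMIs), which count captured transcripts, and the median per cell ran from 8926 to 12474 UMIs. Mitochondrial genes took a median of 6.14 to 7.17% of a cell's UMIs in the 10x libraries, 15.2% in BD 1 and 19.8% in BD 2. Clustering without the claudins gave 10171 epithelial-like cells in 11 clusters, 415 endothelial-like, 1189 fibroblast-like, 787 macrophage-like, 173 mural-like and 41 neutrophil-like cells, with 15 more called dendritic-like. A further 2797 cells were in clusters left without a name and 370 were not clustered. Libraries shared at most 24 cell barcodes, with 0 identical profiles. A level below is a gene's UMIs per 10000 UMIs of the summed cells of a class or cluster in a library. Epithelial transcripts in other cells are given as the level of Krt8, Krt18, Epcam, Csn3 and Wfdc18, in percent of their epithelial-like level. This measure is called free RNA below, but it cannot tell RNA from burst cells apart from doublets or misplaced cells.

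Cldn3 and Cldn4 are neighbours on mouse chromosome 5 (GRCm38). Cldn3 lies at chr5:134986214-134987472 on the plus strand and Cldn4 at chr5:134945119-134946934 on the minus strand, 39279 bp apart with 0 protein-coding genes between them. The 250 bases before each start are shown because this pair moved together across epithelial clusters and in opposite directions between platforms, with the promoter of Cldn5, at chr16:18776847-18778262 on the plus strand, as that of the vessel claudin. Across clusters each correlated more closely with Cldn7, on chromosome 11 (r = 0.880 and 0.869), than with the other (r = 0.793). The sequences are from RefSeq on GRCm38.p6, each on its gene's strand, and capitals mark a match to CACCTG or its reverse complement CAGGTG, the E-box that Snail and Zeb repressors are known to bind.
Cldn3, chr5:134985964-134986213: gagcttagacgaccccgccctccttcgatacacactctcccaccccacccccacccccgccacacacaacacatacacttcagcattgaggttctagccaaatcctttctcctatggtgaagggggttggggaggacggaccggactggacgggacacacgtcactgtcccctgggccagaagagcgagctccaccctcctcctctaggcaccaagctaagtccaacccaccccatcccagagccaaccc
Cldn4, chr5:134946935-134947184: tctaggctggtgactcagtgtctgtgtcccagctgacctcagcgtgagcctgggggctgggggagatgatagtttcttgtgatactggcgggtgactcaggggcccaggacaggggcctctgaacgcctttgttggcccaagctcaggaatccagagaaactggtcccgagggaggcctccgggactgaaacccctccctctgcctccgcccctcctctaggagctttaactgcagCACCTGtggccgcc
Cldn5, chr16:18776597-18776846: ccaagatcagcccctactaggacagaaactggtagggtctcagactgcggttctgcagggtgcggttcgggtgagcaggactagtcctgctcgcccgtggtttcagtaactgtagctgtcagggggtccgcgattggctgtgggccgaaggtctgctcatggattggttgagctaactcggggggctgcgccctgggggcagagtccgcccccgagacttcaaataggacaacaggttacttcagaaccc
The E-box occurred in the Cldn4 window, its first base 14 bases before the start, and in neither of the other windows. Of all 32851 promoter windows of this length, 17.2% held it on either strand. The window before the later of 2 Cldn7 starts (chr11:69965171-69965420) held 2 matches, the window before the earlier start held 0, and Cldn1, Cldn5 and both Cldn10 starts held 0. A match is a description of these letters alone.

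Cldn5 marked the endothelial-like cells. This cluster held all 8 endothelial markers checked and 2 of 8 epithelial markers. The Cldn5 level there was 3.64 and 3.75 in fresh 10x 1 and 2, 2.59 in stored 10x and 1.79 and 1.70 in BD 1 and 2, a mean of 2.69 ± 0.980 (SD, n = 5). Both fresh 10x libraries were above the other libraries. Of 1255 Cldn5 UMIs in all cells, 1097 (87.4%) were in the 415 endothelial-like cells and 40 in the 12376 cells of the other named classes. Most of the remaining UMIs, 108, were in 6 cells called as doublets.

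Per UMI, Cldn5 was 1616 times as high in endothelial-like cells as in the other named classes pooled (95% interval 1179 to 2274, covering counting error only). The ratio was 1172 and 1699 in fresh 10x 1 and 2, 859 in stored 10x and 1397 and 1919 in BD 1 and 2. In BD 1 the 7 outside UMIs came from a single cell. In BD 2 the ratio rested on 14 UMIs in 2 endothelial-like cells and 4 outside UMIs (95% interval 603 to 8008, counting error only). The fraction of endothelial-like cells with a Cldn5 UMI, each cell thinned to 2000 UMIs, was 34.9% and 37.3% in fresh 10x 1 and 2, 23.3% in stored 10x and 20.0% and 15.4% in BD 1 and 2. Without thinning these were 48.8%, 57.4%, 45.2%, 40% and 15.4%, at median depths of 4407 to 9319 UMIs per cell. In macrophage-like cells, which should lack Cldn5, 0 cells had a UMI in 4 libraries and 0.450% in BD 2, at median depths of 4570 to 11460 UMIs.

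**Figure D1:**
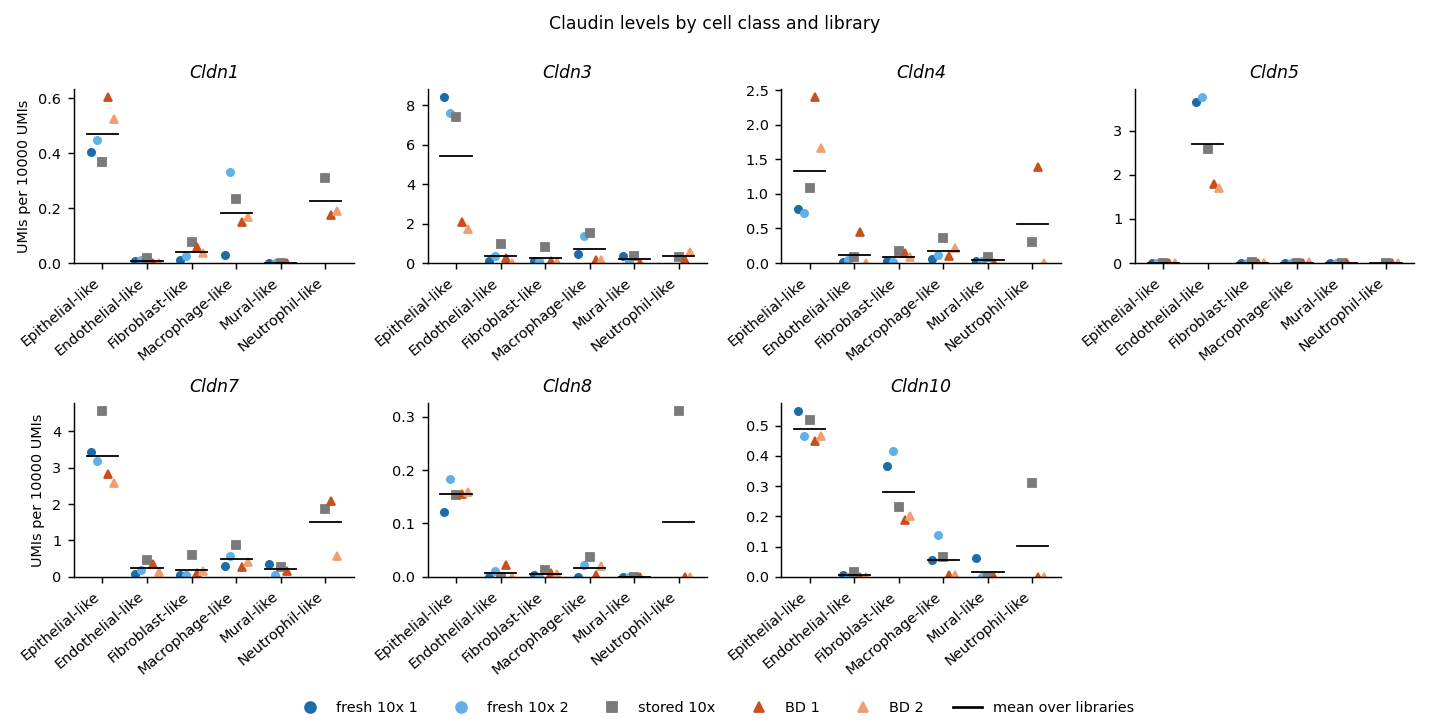
Level of each of the 7 claudins (UMIs per 10000, linear axes that differ between panels) in each cell class, a point per library with at least 10 cells and a line at the mean. Cldn5 sits between 1.70 and 3.75 in endothelial-like cells and near 0 elsewhere, and the means of Cldn1, Cldn3, Cldn4, Cldn7, Cldn8 and Cldn10 are highest in epithelial-like cells. Neutrophil-like points rest on 10 to 12 cells each.

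In the test of endothelial-like cells against the mean of the other classes, 3 of the 7 members were called, where 31.9% of the 11683 genes tested were called in either direction (edgeR quasi-likelihood test, Benjamini-Hochberg adjusted p under 0.05, library as a block). Cldn5 was higher (fitted log2 11.12, SE 0.344, adjusted p = 1.32e-18); it was at 0 in every mural-like and neutrophil-like sum, so the fitted size depends on the model and the ratio above is the measured one. Cldn7 was lower (log2 -1.58, SE 0.421, adjusted p = 0.00402), as was Cldn10 (log2 -4.26, adjusted p = 0.0139), which had 2 UMIs in all endothelial-like cells. Cldn3 (log2 -1.0, adjusted p = 0.146) and Cldn4 (log2 -0.91, adjusted p = 0.294) were not called, nor were Cldn1 and Cldn8 (adjusted p = 1 for each). Of all genes 22.2% were called higher and 9.68% lower.

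The calls other than that of Cldn5 rested on few libraries. Without fresh 10x 1 the call of Cldn7 ended (adjusted p = 0.0689), and that of Cldn10 ended without fresh 10x 1 or without stored 10x. With cells gated on markers in place of clusters Cldn5 was the 1 member called, and Cldn7 was on the other side of 0 (log2 0.74). Neutrophil-like cells entered the mean from 34 cells in 3 libraries, with free RNA at 31.1% in stored 10x and 38.9% and 44.5% in BD 1 and 2, and without them Cldn3 was called lower too (log2 -1.20, adjusted p = 0.0304).

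The Cldn3, Cldn4 and Cldn7 left in endothelial-like cells were low where free RNA was low. They were at 0 to 18.7% of their epithelial-like level, and free RNA was at 1.34% and 5.58% in fresh 10x 1 and 2, 11.3% in stored 10x and 13.1% and 2.84% in BD 1 and 2. BD 2 had only 13 of these cells, where 3 UMIs would be a level of 0.364, beside an epithelial-like Cldn3 level of 1.71. A count of 0 there therefore does not show a low level. Of the 415 cells, 11 also carried epithelial markers, and these held 62 of 120 Cldn3 UMIs, 22 of 33 Cldn4 UMIs and 38 of 71 Cldn7 UMIs. The 313 cells gated on endothelial markers held 26, 10 and 19 UMIs of the same genes beside 883 of Cldn5, with free RNA at 1.60%. In stored 10x and BD 1 the measure was 3.1% and 2.0% in the gated cells and 50.5% and 68.4% in the 5 cells of each library with epithelial markers. Both sets were gated so that the markers of their class exceeded those of every other class. Their free RNA therefore depends in part on the gates and is no separate support. The source of the Cldn3, Cldn4 and Cldn7 UMIs in endothelial-like cells was not tested.

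Other genes of vessel junctions were higher too. In the same test 10 of 10 endothelial junction genes were called higher, with a median of 7.84 on the log2 scale against 0.20 over all genes, led by Cdh5 (VE-cadherin, the adherens junction cadherin of endothelium, log2 12.20). Of these genes Cdh5, Pecam1 and Emcn were among the 10 leading genes of this cluster, and only claudins were left out of the clustering. The count therefore describes how the class was formed and adds no separate support. Of 16 tight junction scaffold and membrane partners (median 0.49), 6 were higher and 3 lower. The scaffolds Magi1 (log2 4.86) and Tjp1 (log2 2.41) and the adhesion molecule F11r (log2 2.59) were higher, and the polarity protein Pard3 was lower (log2 -3.12). Of 4 other claudins tested, Cldn15 was the 1 called, higher by 4.58 on the log2 scale against the class mean; its pooled level was 0.111 in endothelial-like cells but 0.235 in mural-like cells. Of 9 adhesion partners 2 were higher and 2 lower, Ctnna1 (alpha-catenin, log2 1.29) leading the first and the protease inhibitor gene Spint1 (log2 -3.28) the second.

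Over the 27 sums of class and library, the genes most like Cldn5 were Ushbp1, Sox17 and Sox7 (Pearson r 0.998 for each). Sox17 and Sox7 are transcription factors of endothelium. These sums share libraries and depth.

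In epithelial-like cells against the mean of the other classes 6 of 7 were called, all higher, where 47.5% of the 11683 genes were called, 36.5% higher and 10.9% lower, and the median over all genes was 0.37. Cldn8, a sealing claudin, was higher by 4.74 on the log2 scale (SE 0.416), Cldn1, a claudin of most epithelial barriers, by 4.66 (SE 0.374) and Cldn3 by 4.35 (SE 0.289). Cldn10, an ion channel-forming claudin, was higher by 3.77 (SE 0.315), Cldn4 by 3.46 (SE 0.273) and Cldn7 by 3.44 (SE 0.239). All 6 calls held in every alternative fit, leaving out each library included.

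Most junction genes were higher too, but genes other than claudins were not left out of the clustering that formed the classes. Of 16 tight junction partners 14 were higher and 0 lower (median 2.33), led by Ocln, the occludin gene, at log2 6.35, with Crb3 at 4.71 and Marveld2, the tricellulin gene, at 4.05. Of 9 adhesion partners (median 3.34) 8 were higher, among them Prom1 (log2 6.22) and Epcam (log2 3.82), whose protein is known to bind Cldn7. Of 4 other claudins 2 were higher, led by Cldn2 (log2 4.93), a pore-forming claudin. Of 14 regulators of epithelial junction genes (median 3.52) 9 were higher, led by Ovol1 (log2 6.14), and 2 lower, led by the repressor gene Zeb2 (log2 -7.16). Over the 27 sums the genes most like Cldn7 were Krt8, Epcam and Rab25, and those most like Cldn3 were Folr1, Bglap3 and Plpp2; Cldn4 was most like Cited4, Tob1 and Atp6v1c2. Cldn1 was most like Galnt3, Tfap2c and Lsr, the last a protein of tricellular junctions, Cldn8 like Tpd52l1, Car6 and Dbi, and Cldn10 like Phgdh, Reep5 and Igsf3.

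Levels are compared here within each gene and are not ranked between genes. The ratio of Cldn3 to Cldn4 UMIs given below is compared between libraries only. Cldn1 was at 0.404 and 0.448 in fresh 10x 1 and 2, 0.369 in stored 10x and 0.604 and 0.526 in BD 1 and 2. Cldn7 was at 3.44, 3.18, 4.56, 2.82 and 2.58 in the same order. Cldn8 was at 0.121, 0.183, 0.153, 0.156 and 0.160, and Cldn10 at 0.548, 0.464, 0.519, 0.448 and 0.467. The lowest and the highest Cldn8 levels were those of the fresh 10x pair. Cldn10 spanned a narrow range over libraries, while Cldn7 was highest in stored 10x and lowest in the BD libraries.

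Outside the epithelium, Cldn10 in fibroblast-like cells and Cldn1 in macrophage-like cells reached large parts of their epithelial-like level. Cldn10 in fibroblast-like cells was at 67.0% and 89.5% of its epithelial-like level in fresh 10x 1 and 2, 44.4% in stored 10x and 41.7% and 43.3% in BD 1 and 2, where free RNA was, in that order, at 1.56%, 1.71%, 10.1%, 4.52% and 6.25%. Both fibroblast-like clusters held it. Cldn1 in macrophage-like cells was at 6.83%, 74.5%, 63.6%, 25.1% and 31.9% of its epithelial-like level, with free RNA at 6.80%, 13.3%, 20.8%, 11.2% and 10.3%. In those cells Cldn3 was at 5.25 to 20.3% of its epithelial-like level. Cldn1 in fibroblast-like cells was at 2.87 to 20.3%, above free RNA in 5 of 5 libraries, and Cldn4 was above it in 4 of 5 in both classes. These counts rest in part on few UMIs. Fibroblast-like Cldn1 had 3 and 5 UMIs in fresh 10x 1 and 2, and macrophage-like Cldn4 had 2 in fresh 10x 1. In BD 1, 41 of the 98 fibroblast-like Cldn4 UMIs were in 1 cell. Whether these levels exceed free RNA beyond counting error was not tested.

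The Cldn1 UMIs of the macrophage-like class were spread unevenly, by a split chosen after the values were seen. A set of 48 cells with at least 2 UMIs of dendritic cell markers and fewer than 3 of the C1q genes held 62 of 134 Cldn1 UMIs, in 16 cells. Their Cldn1 level of 1.33 was 277% of the epithelial-like level, while Cldn3 was at 0.870% and free RNA at 2.73%. Another set held 554 cells with at least 3 UMIs of C1q, a complement component of macrophages, and fewer than 2 of the dendritic markers. These C1q cells had Cldn1 at 0.095, or 19.8%, with Cldn3 at 12.8% and free RNA at 14.4%. The other 185 cells of the class had 21 Cldn1 UMIs, at 30.1% of the epithelial-like level, with Cldn3 at 3.91% and free RNA at 9.36%. By library the C1q cells ran from 5.65% in BD 2 to 52.4% in stored 10x. Fresh 10x 1, with the lowest Cldn1 of the class, had 0 cells of the dendritic set, but stored 10x, with the second highest, had only 2, with 0 Cldn1 UMIs.

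**Figure D2:**
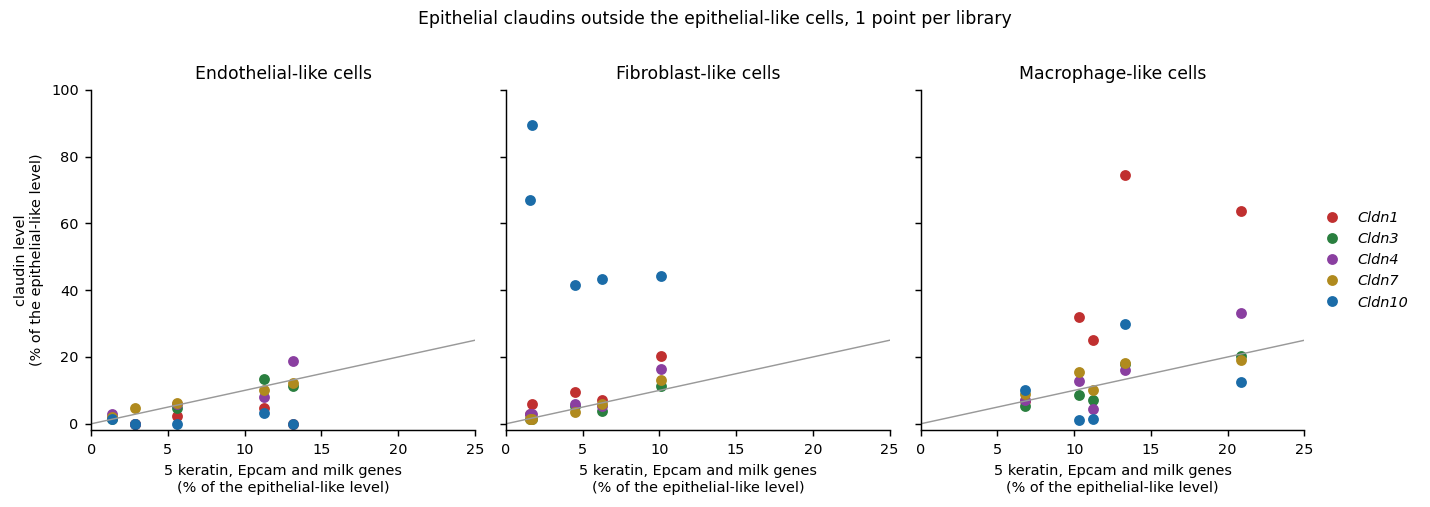
Level of 5 epithelial claudins in endothelial-like, fibroblast-like and macrophage-like cells (vertical axis, percent of the epithelial-like level) against free RNA (horizontal axis, the same percent for its 5 genes), a point per library, with a grey line where both are equal. Cldn10 in fibroblast-like cells sits between 41.7 and 89.5%, above free RNA in all 5 libraries.

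Across the 11 epithelial clusters, all 6 epithelial members tested differed (edgeR F test, adjusted p under 0.05), where 89.6% of the 12393 genes tested did, so the count is near the background. Claudins were left out of the clustering, but the clusters were made from the same cells, so the tests below describe these clusters. The clusters were led by milk protein genes (cluster 0, Csn2 and Wap), Fcgbp (cluster 2), Saa2 (cluster 3), Spp1 (cluster 4), Scgb2b27 and Pip (cluster 6), Smr2 and Car6 (cluster 7), cell cycle genes (cluster 8), interferon response genes (cluster 11), Krt14 and Krt5 (cluster 17, basal-like), Aldh1a3 (cluster 18, luminal progenitor-like) and Prlr and Cited1 (cluster 20, hormone sensing-like, with cycling markers too). Cluster 20 had only 52 cells and entered in 3 libraries. Cluster 7 had 13 cells in fresh 10x 1.

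The luminal progenitor-like cluster 18 (302 cells) had the highest levels of Cldn1, Cldn3, Cldn4 and Cldn7 in 5 of 5 libraries. Cldn4 was at 2.67 and 3.61 there in fresh 10x 1 and 2, 3.40 in stored 10x and 11.5 and 6.44 in BD 1 and 2, or 3.21 to 5.92 times the rest of the epithelium. Against the mean of the other clusters 5 of 6 members tested were called, 4 higher and 1 lower, where 38.4% of genes were called, 20% higher and 18.4% lower. Cldn4 was higher by 2.18 (log2, adjusted p = 1.14e-20), Cldn1 by 1.30 (SE 0.114), Cldn3 by 0.88 (SE 0.076) and Cldn7 by 0.82 (SE 0.085). Cldn10 was lower (log2 -3.14, SE 0.447). Cldn4 was among the 10 leading genes of this cluster. Without the library block the call of Cldn3 ended (adjusted p = 0.193).

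Junction genes were higher with them: 11 of 17 tight junction partners (median 0.50) and 8 of 10 adhesion partners (median 0.71), with 0 lower in either list, where the median of all genes was -0.02. The tight junction partners were led by the polarity gene Pard6b (log2 1.93), and Tjp1 was at 1.05. Of 13 regulators 5 were higher and 0 lower. Of the other claudins Cldn23 was higher (log2 1.47) and Cldn2 lower (log2 -1.35).

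The basal-like cluster 17 (462 cells), with 5 of 6 basal markers detected, stood at the other end. It had the lowest Cldn3, Cldn4 and Cldn7 in 5 of 5 libraries. Cldn3 was at 1.32 and 2.00 in fresh 10x 1 and 2, 2.24 in stored 10x and 0.654 and 0.246 in BD 1 and 2, or 0.13 to 0.28 times the rest of the epithelium. Of 6 members 4 were lower, where 37% of genes were called, 19% higher and 18% lower: Cldn3 (log2 -2.18, SE 0.106), Cldn4 (log2 -1.91, SE 0.219), Cldn7 (log2 -1.39, SE 0.110) and Cldn10 (log2 -2.66, SE 0.432). Cldn1 (log2 -0.22) and Cldn8 (log2 -0.11) were not called.

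Among tight junction partners in the basal-like cluster (median -0.95, against -0.03 over all genes) 10 of 17 were lower, including Ocln (log2 -1.61) and Marveld2 (log2 -1.03), and 4 were higher. Of 10 adhesion partners 5 were lower, with the protease gene St14 at log2 -1.23, and 2 were higher, led by Cdh3 (P-cadherin, log2 5.89), a basal cell gene. Of 13 regulators 6 were lower, led by Grhl1 (log2 -1.44), and 1 was higher: Snai2 (Slug), a repressor of epithelial junction genes, at log2 6.27. Lists of this kind share genes with the markers that formed the clusters.

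**Figure D3:**
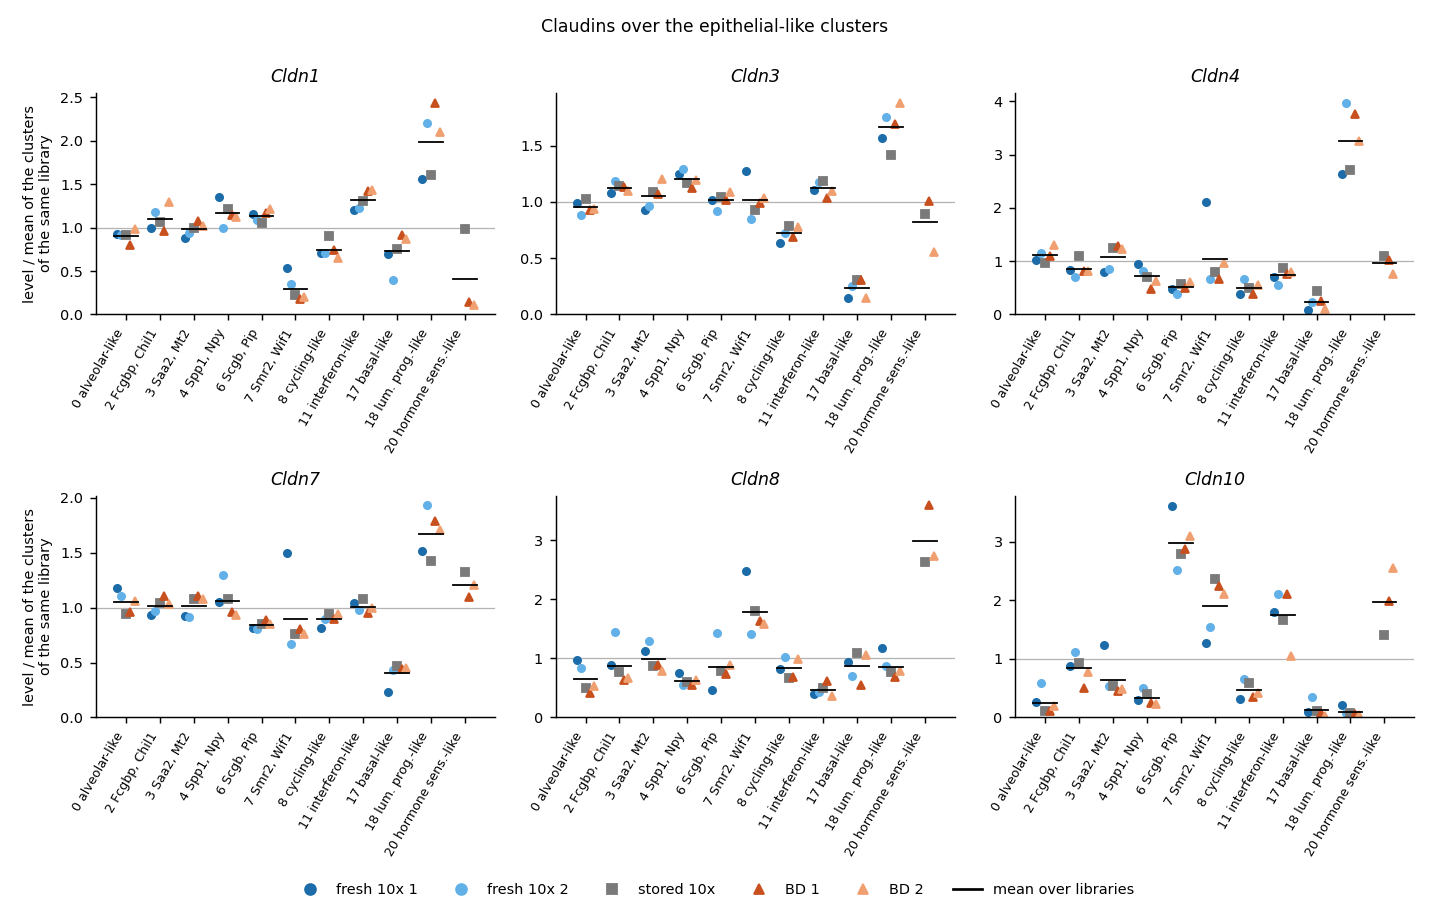
Level of each epithelial claudin in each epithelial cluster relative to the mean of the clusters of the same library (no unit), a point per library and a line at the mean. Cldn3, Cldn4 and Cldn7 are highest in cluster 18 and lowest in cluster 17, and Cldn10 is highest in cluster 6.

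Cldn10 had a different order from Cldn3, Cldn4 and Cldn7. It was highest in cluster 6 in 5 of 5 libraries, at 2.03 and 1.13 in fresh 10x 1 and 2, 1.45 in stored 10x and 1.35 and 1.44 in BD 1 and 2, and was called higher there (log2 2.55, SE 0.137). In cluster 6, where 40.2% of genes were called (23.6% higher, 16.6% lower), 3 of 6 members were: Cldn10, Cldn1 (log2 0.45) and Cldn4, which was lower (log2 -0.69) and was not called without the library block (adjusted p = 0.218). Cldn10 was also higher in cluster 7 (log2 2.02), cluster 11 (log2 1.75) and cluster 20 (log2 1.63), and cluster 18, at the top for Cldn4, had the lowest mean Cldn10, not apart from cluster 17. Cldn2 was the other claudin higher in cluster 6 (log2 1.52).

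Cldn8 and Cldn1 differed in other clusters. Cldn8 was highest in cluster 20 in 3 of 3 libraries (log2 1.77, SE 0.300), then in cluster 7 (log2 1.00), and lower in cluster 11 (log2 -0.99). Cldn1 was lower in cluster 7 (log2 -2.28, SE 0.172) and cluster 20 (log2 -1.21) and higher in cluster 11 (log2 0.75). In cluster 20 it had only 18 UMIs and ran from 0.103 to 0.982 times the rest of the epithelium over 3 libraries. In the cycling-like cluster 8, Cldn1, Cldn3, Cldn4 and Cldn10 were lower by 0.28 to 0.83 on the log2 scale, where 64.8% of genes were called (32.5% higher, 32.3% lower), and Cldn3 was not called without the library block (adjusted p = 0.626).

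Of all genes, 32.1% were called in cluster 7 (17.1% higher, 14.9% lower), 27% in cluster 11 (16.9% higher, 10.1% lower) and 19.6% in cluster 20 (8.96% higher, 10.6% lower), against 3, 4 and 3 of 6 members.

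The other clusters held differences of -1.43 to 0.66 on the log2 scale. In the milk protein cluster 0 Cldn4 (log2 0.66), Cldn7 (log2 0.30) and Cldn3 (log2 0.22) were higher and Cldn8 (log2 -0.52) and Cldn10 (log2 -1.43) lower, where 26.8% of genes were called, 17.1% higher and 9.71% lower. In cluster 4 Cldn1 (log2 0.54), Cldn3 (log2 0.48) and Cldn7 (log2 0.21) were higher and Cldn8 (log2 -0.58) and Cldn10 (log2 -0.92) lower, where 34.1% were called, 20% higher and 14.1% lower. Clusters 2 and 3 had 3 members higher each and 0 lower. These were Cldn1, Cldn3 and Cldn10 in cluster 2, at log2 0.39 to 0.54, where 37.9% were called, 21.6% higher and 16.3% lower. They were Cldn1, Cldn3 and Cldn4 in cluster 3, at log2 0.27 to 0.55, where 21.5% were called, 14.8% higher and 6.7% lower. DESeq2 called 4 members in cluster 0, 4 in cluster 4 and 2 each in clusters 2 and 3, against 5, 5 and 3 each by edgeR.

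Not all neighbours in these orders could be separated. Relative to the mean of its library, Cldn4 was 3.26 in cluster 18 and 1.11 in cluster 0, higher in 5 of 5 libraries by more than the SD of the gap, while clusters 0, 3, 7 and 20 did not differ beyond it. Cldn3 in cluster 18 (1.66) was above cluster 4 (1.21) and in cluster 8 (0.722) above cluster 17 (0.231), each in 5 of 5 libraries. From cluster 2 down to cluster 8 no neighbours of Cldn3 differed beyond their SD. For Cldn10 cluster 6 (2.98) stood above cluster 20 (1.98), and clusters 20, 7 and 11 did not differ.

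Over the 53 sums of cluster and library, centred within library, Cldn3 and Cldn7 had r = 0.880, Cldn4 and Cldn7 r = 0.869, and Cldn3 and Cldn4 r = 0.793. Cldn1 and Cldn8 had r = -0.649. These are descriptions of sums that share cells and depth. The genes most like Cldn3 were Prss8, Cldn7 and Rhou, those most like Cldn4 were Cldn7, St14 and Marveld2, and those most like Cldn7 were Cldn3, St14 and Cldn4; Prss8 and St14 encode membrane proteases. Cldn1 was most like Ceacam1, Lgalsl and Actn4, and Cldn10 like Tspan13, Lmo7 and Iqgap2.

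Single cells of these clusters differed in the same direction. With cells thinned to 2000 UMIs, the share of epithelial-like cells with 0 UMIs of Cldn3, Cldn4 and Cldn7 was 16.5% and 17.2% in fresh 10x 1 and 2, 16.1% in stored 10x and 34.9% and 39.8% in BD 1 and 2. In the basal-like cluster it was 74.7%, 67.9%, 63.9%, 68.2% and 83.7%, and in the luminal progenitor-like cluster 3.12%, 7.41%, 9.09%, 10.7% and 31.1%. A cell without a UMI at this depth may still express the gene. In macrophage-like cells, as the background of free RNA, 0 to 12.1% of cells had a Cldn3 UMI at this depth.

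**Figure D4:**
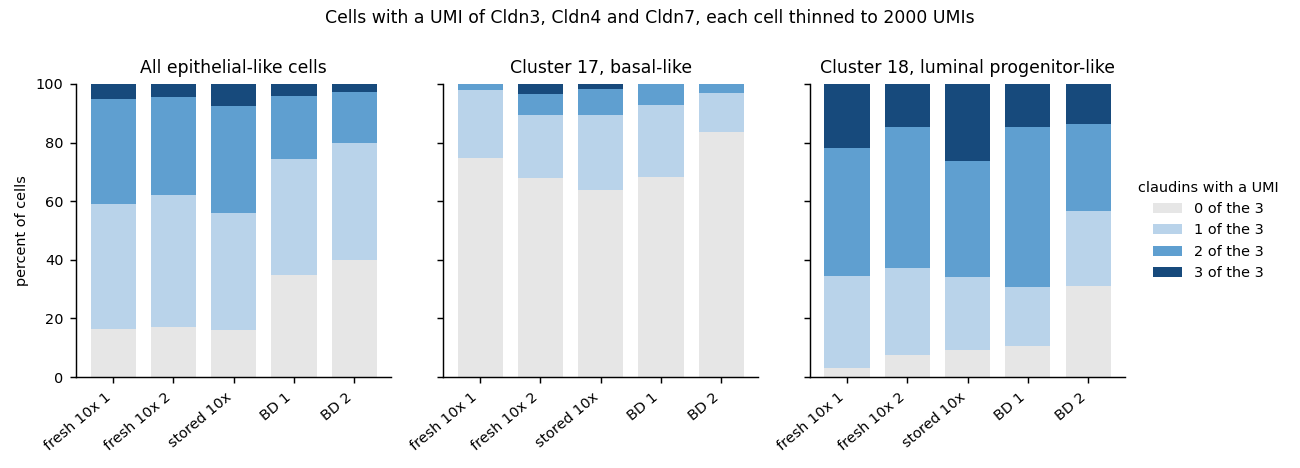
Share of cells (percent, thinned to 2000 UMIs) with a UMI of 0, 1, 2 or 3 of Cldn3, Cldn4 and Cldn7, by library, in all epithelial-like cells, cluster 17 and cluster 18. Cells with 0 of 3 make up 63.9 to 83.7% of cluster 17 and 3.12 to 31.1% of cluster 18.

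The members differed unequally between the 10x and BD libraries, where platform cannot be told apart from other differences between the libraries. Cldn3 in epithelial-like cells was at 8.41 and 7.64 in fresh 10x 1 and 2, 7.39 in stored 10x and 2.08 and 1.71 in BD 1 and 2. Cldn4 ran the other way, at 0.775, 0.718, 1.08, 2.40 and 1.67 in the same order. The groups of 10x and BD libraries did not overlap for either gene, and they did not overlap for Cldn1 or Cldn7. Levels of Cldn8 and Cldn10 did overlap. How many of all genes were separated in this way was not counted, so the separation cannot be read as particular to claudins.

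Between BD 1 and fresh 10x, 4 of 7 members were called, where 41.1% of the 15439 genes tested were, 20.8% higher and 20.3% lower. Cldn3 was lower (log2 -2.10, SE 0.149, adjusted p = 0.000199), Cldn4 higher (log2 1.53, SE 0.109, adjusted p = 0.000202), Cldn1 higher (log2 0.35, SE 0.115, adjusted p = 0.0490) and Cldn7 lower (log2 -0.39, SE 0.126, adjusted p = 0.0477). Cldn10 (log2 -0.33, adjusted p = 0.108), Cldn5 (log2 -0.98) and Cldn8 (log2 -0.12) were not called. By DESeq2 2 members were called, and the calls of Cldn1 and Cldn7 ended (adjusted p = 0.317 and 0.0788). The spread in this test comes from the fresh 10x pair, and BD 1, a single library, is assumed to vary like it.

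The ratio of Cldn3 to Cldn4 UMIs, taken within cells of the same library, was 10.8 and 10.6 in fresh 10x 1 and 2, 6.85 in stored 10x and 0.869 and 1.03 in BD 1 and 2. The direction held in every epithelial cluster compared: BD 1 was at 0.227 to 0.395 of the fresh 10x level of Cldn3 in 10 of 10 clusters and at 1.48 to 5.10 times that of Cldn4 in 10 of 10. In cluster 7 the BD 1 level of Cldn4 lay between the fresh 10x libraries, and in cluster 17 BD 2 (1.36 times fresh 10x) was below stored 10x (3.70 times). Cldn7 was below fresh 10x in 8 of 10. Median mitochondrial percent was 15.2% in BD 1 against 6.14% and 6.99% in fresh 10x, and its part in the result was not tested. The antisense gene Wbscr25 overlaps Cldn3 and had 520 UMIs in all libraries against 92038 of Cldn3; the use of strand in counting is not stated, so these reads may be mixed.

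**Figure D5:**
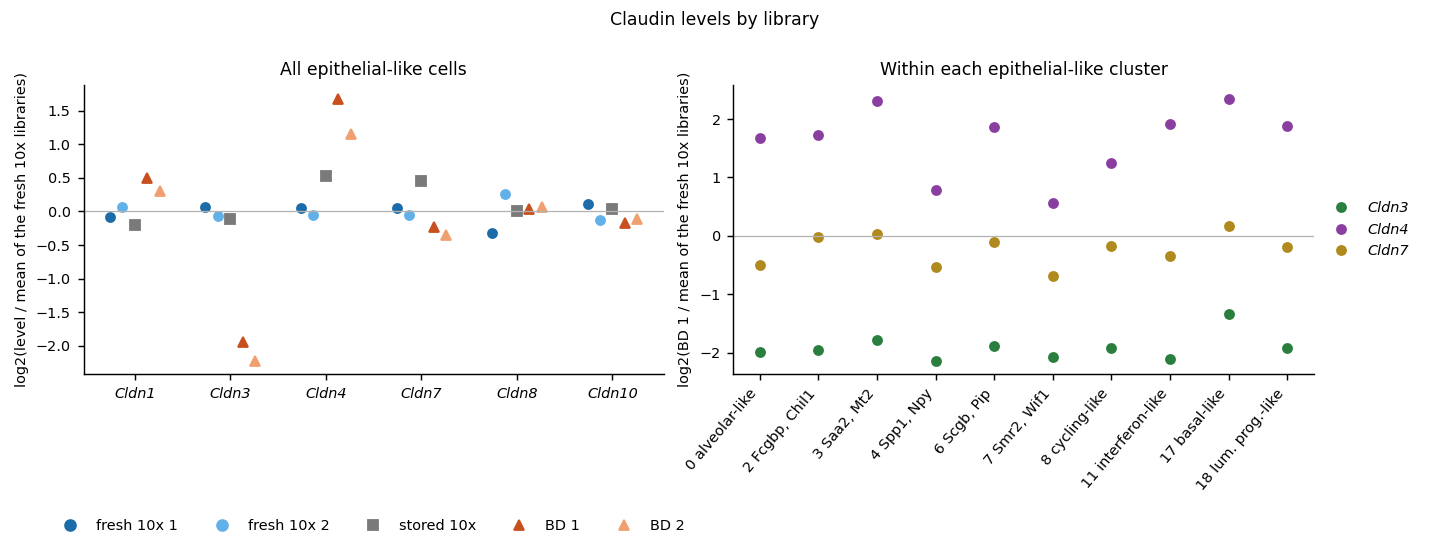
Left, log2 ratio of each library's level to the mean of the fresh 10x libraries for each epithelial claudin in epithelial-like cells; right, the log2 ratio of BD 1 to that mean for Cldn3, Cldn4 and Cldn7 within each epithelial cluster. Both BD libraries lie below 0 for Cldn3 and above 0 for Cldn4, and BD 1 does so in 10 of 10 clusters.

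Other junction genes did not share a single direction on BD 1. Of 17 tight junction partners (median 0.08, against 0.02 over all genes) 4 were higher, led by Mpp5 (log2 0.86), and 3 lower, led by Crb3 (log2 -0.89). Of 10 adhesion partners 4 were higher, led by Spint1 (log2 1.15), and St14 was lower (log2 -0.52). Of 10 other claudins 3 were higher, led by Cldn2 (log2 1.72), and 0 lower, and of 15 regulators 6 were higher, led by Snai1 (log2 1.30).

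In whole libraries 4 of 7 members were called, where 38.7% of the 16973 genes were, 20.1% higher and 18.6% lower: Cldn3 (log2 -2.15), Cldn4 (log2 1.48), Cldn7 (log2 -0.42) and Cldn5 (log2 -3.58, SE 0.430). By DESeq2 3 members were called, without Cldn7. The whole-library Cldn5 level was 0.206 and 0.124 in fresh 10x 1 and 2, 0.0324 in stored 10x and 0.0152 and 0.00360 in BD 1 and 2. Endothelial-like cells were 10.1%, 6.30%, 2.64%, 1.47% and 0.402% of named cells in the same order. Within endothelial-like cells the BD 1 level of Cldn5 was 0.484 times the fresh 10x mean, so both the share of these cells and the level in them were lower. The difference between platforms in the endothelial-like minus epithelial-like contrast was called for 0 of 7 members by edgeR, where 0.538% of genes were called (0.323% higher, 0.215% lower), with 3 at an unadjusted p under 0.05 and 0 by DESeq2; Cldn4 was closest (log2 1.86, adjusted p = 0.108), and 20 of its 21 UMIs in BD 1 endothelial-like cells were in 2 cells with epithelial markers, 19 of them in 1 cell.

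Storage was called for no member. In stored 10x against fresh 10x, epithelial-like cells, edgeR called 0 of 7, where 0.661% of genes were called (0.531% higher, 0.13% lower), with 2 at an unadjusted p under 0.05 and 0 called by DESeq2. These were Cldn4 (log2 0.55, adjusted p = 0.0985) and Cldn7 (log2 0.48, adjusted p = 0.155), both above each fresh library. In whole libraries 0 of 7 were called, where 0.147% of genes were (0.112% higher, 0.0354% lower), with 3 at an unadjusted p under 0.05, while DESeq2 called 2, Cldn4 and Cldn5. There Cldn5 was at log2 -2.28 and Cldn4 at log2 0.70.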

How the data were processed

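Single-cell RNA sequencing of digested PyMT mammary tumours was deposited as UMI counts per gene and cell for 5 libraries, whole numbers that were not normalised, per the file headers. The authors had already selected the cells. Cell Ranger 3.0.1 and the build mm10 are named in the submitters' processing notes, without the step they were used for; how BD Rhapsody reads were counted, and whether strand was used, is not given in the sources used here. Smaller or pooled matrices that repeat these cells, and Drop-seq, were not used here. The number of per-sample columns left out of columns with a known sample was 0. Spellings of a symbol were merged, every gene with a count was listed in all 5 gene lists, and of 15439 genes tested in epithelial-like cells 78 were at 0 in all 10x libraries with at least 100 UMIs on BD Rhapsody and 78 the other way round.

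Cells with at least 200 genes were clustered across libraries (Python 3.11.15, scanpy 1.11.5, Leiden in igraph 0.11.9, resolution 1.0, 2000 variable genes scaled within library, 30 components, 15 neighbours), with 35 claudin names left out. Clusters were named from markers, and clusters that failed were left without a name. Scrublet marked 31 cells as doublets, which were left out; at that share the caller cannot be relied on. UMIs were summed per library and class or epithelial cluster (at least 10 cells) and tested with edgeR 4.0.16 (quasi-likelihood, TMM, filterByExpr, Benjamini-Hochberg over all genes tested, adjusted p under 0.05), with the library as a block, which pairs classes of the same cell suspension. Every named class with at least 10 cells in a library entered, so that neutrophil-like cells entered in 3 libraries. Library comparisons were fitted in 4 groups without a block. The fits recovered known changes in counts simulated with the same dispersion for every gene and no other class differences. Only genes with counts well above 0 were changed there, so the simulation does not cover sums near 0. Poisson and exact binomial intervals are at 95% and cover counting error only.

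The 7 members and the gene lists were chosen with earlier results of these data known. All members were tested in every comparison except Cldn5 in the epithelial clusters, but some of their values are not printed. List genes are described by the largest difference called in each direction, and like genes as the 3 highest Pearson correlations of log2(UMIs per 10000 + 0.1). Genes named beside these were chosen after their values were seen. Alternatives were DESeq2 1.42.0, RLE size factors, no filter on low counts, only cells of 500 UMIs or more whose mitochondrial share was 20% or less, doublets kept, no block, marker gates or a Leiden resolution of 2.0, thinning to another depth, each library left out, and, added after the data were seen, fits without BD 2 or without neutrophil-like cells. Coordinates are from GENCODE M21 on GRCm38. Some values of the lists and of the genes most like a member are not reported here.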

Additional observations from a re-analysis of the deposited data

How the results depend on the processing

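Of the values that answer a comparison, 70 kept their call or stayed within the spread under the alternatives and 15 moved. Of the single members' values, 462 kept their direction and call, 14 lost their call, 5 gained one, 4 without a test moved by more than the error and 6 changed sign. The 3 members called in endothelial-like cells became 1 with marker gates and 1 to 3 when each library was left out, and 4 by DESeq2, with no filter on low counts or without neutrophil-like cells; in epithelial-like cells DESeq2 called 7 against 6. The 4 members called for BD 1 against fresh 10x became 2 by DESeq2 in epithelial-like cells and 3 in whole libraries. The 0 called for storage in whole libraries became 2 by DESeq2. Signs changed with marker gates for Cldn4 (0.11) and Cldn7 (0.74) in endothelial-like cells, and for Cldn4 in the platform difference of the class contrast (-1.81, and -9.83 to 2.20 when each library was left out, -9.83 without BD 1). With each fresh 10x library left out, Cldn8 on BD 1 ran from -0.33 to 0.23 (0.23 without fresh 10x 2) and Cldn3 after storage from -0.16 to 0.013 (0.013 without fresh 10x 1); with 1 fresh library left there are no residual degrees of freedom and so no test. The cause was not tested. Cldn10 on BD 1 became called in cells passing the UMI and mitochondrial limits (log2 -0.65, adjusted p = 0.0101).

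Shares of cells rise with the depth of thinning. At 1000 and 4000 UMIs they were 4.88% and 16.0% for Cldn1, 9.42% and 24.1% for Cldn4, 25.9% and 65.0% for Cldn7, 1.59% and 5.32% for Cldn8, and 4.53% and 12.4% for Cldn10, against 8.94%, 15.3%, 43.2%, 2.94% and 7.44% at 2000. Cldn5 in endothelial-like cells reached 36.5% at 4000 against 26.2% at 2000. In the class and cluster fits, dropping the library block (the pairing of sums by library) changed no call of a member named in the class tests; in clusters it ended those of Cldn3 in cluster 18 (log2 0.88) and cluster 8 and Cldn4 in cluster 6. No paired analysis was possible because the fresh 10x, stored 10x, BD 1 and BD 2 groups share fewer than 2 replicate numbers. The endothelial-like class is small in BD 2 (13 cells), which limits every endothelial value there. Each platform and storage comparison rests on the spread of the fresh 10x pair, and the BD and stored groups are single libraries.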
